A study of Mus musculus with 9 samples.

Results

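The DNA replication and mitosis genes are 46 protein-coding genes of the mouse that act when a cell copies its chromosomes and divides. They were chosen by name and not by any measured value, though with earlier results of these data known. They are 46 of 21883 coding genes placed on the genome build GRCm38. The list holds 14 genes of origin licensing (Orc1 to Orc6, Cdc6, Cdt1 and Mcm2 to Mcm7), 24 genes of the replication fork (Mcm10, Cdc45, Gins1 to Gins4, Pcna, Rfc1 to Rfc5, Pold1 to Pold3, Pole, Pole2, Prim1, Prim2, Rpa1 to Rpa3, Lig1 and Fen1) and 8 genes of mitosis (Top2a, Aurka, Aurkb, Plk1, Cdk1, Ccnb1, Bub1 and Mki67). ATAC-seq was the measurement: a transposase inserts adapters where DNA is open, so a peak near the end of a gene marks accessible chromatin there and not the amount of RNA.

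In licensing, the origin recognition complex, Cdc6 and Cdt1 load the Mcm2 to Mcm7 helicase onto DNA before S phase. At the fork, Mcm10, Cdc45 and the GINS proteins switch this helicase on, RPA coats the exposed single strands, primase and the polymerases delta and epsilon copy them, RFC loads the sliding clamp PCNA, and Fen1 and Lig1 finish the lagging strand. Cyclin B1 with Cdk1, the Aurora and Polo kinases and Bub1 then drive and check mitosis, topoisomerase II alpha untangles the copied chromosomes, and Ki-67 coats them and is the usual stain for cycling tumour cells. As background, E2F factors are known to act at promoters of S phase genes, and promoters of mitotic genes often hold a cell cycle homology region (CHR) together with CCAAT boxes bound by NF-Y.

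The 9 libraries formed 3 groups of 3, all from tumour cells that had been injected into mice and were sorted from the tumours on day 15. Res499 is strain 499, derived from the mouse melanoma line B16 and resistant to immune checkpoint blockade, and was not treated. B16_IFNg is B16 exposed to interferon gamma before injection, for 2 weeks in replicates 1 and 2 and for 3 weeks in replicate 3. B16_untreated is B16 with no treatment. The labels give no dose, no clone and no mouse strain, and they do not say that replicates came from separate mice, so the spread between libraries may be technical. The deposited lists held 15396, 9221 and 11768 peaks in Res499, 16240, 13175 and 11183 in B16_IFNg and 15045, 25374 and 20139 in B16_untreated. Peaks at Mitf, Pmel and Dct, genes of the melanocyte lineage, were in all 9 full lists, and 3 to 6 of the 7 lineage markers had one in a list. Sox10 had a peak only in B16_untreated replicate 2 and Mlana only in Res499 replicate 3. In the equal-length lists used below, 2 to 5 lineage markers had a peak. None of 7 leukocyte markers and at most 1 of 6 markers of endothelium and fibroblasts (Col1a1) had one there. In the full lists Cd4 had a peak in B16_IFNg replicates 1 and 2 and B16_untreated replicate 2. Col1a1 had one in every full list except those of Res499 replicates 1 and 2, and Pdgfrb in that of B16_untreated replicate 2.

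Because the lists differ in length, the 9214 most significant peaks of each library were ranked, with rank 1 for the most significant, and a gene took the best rank among peaks within 1000 bp of either of its annotated ends. A rank is a place in a library's own list and not an amount of open chromatin. The −log10 p at the last rank used was 8.75, 4.92 and 8.03 in Res499, 10.1, 8.03 and 7.46 in B16_IFNg and 11.8, 16.4 and 15.1 in B16_untreated, so the same rank stood for more significant peaks in the untreated cells. In sorted bulk cells, a site open in fewer cells and a site less open in each cell cannot be told apart. The shortest peak in a list was 162 to 185 bp long in Res499 replicate 3, B16_IFNg replicate 3 and B16_untreated replicates 1 and 3, and 95 to 125 bp long in the other libraries. The labels give no reason for this split. Within B16_IFNg, the longer shortest peak and the 3 weeks of exposure are the same library and cannot be told apart.

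The promoters below are fixed windows at annotated starts near the accessible sites. The sites reach past the windows and cover some of them only in part. Each is the RefSeq window of GRCm38.p6 from 250 bases before to 50 bases after an annotated start, written 5′ to 3′ on the gene's own strand. Capitals mark E2F motifs, CHR motifs and CCAAT boxes on either strand, so a CCAAT box on the other strand reads ATTGG. Mcm3, a licensing helicase subunit at chr1:20820263-20820562 (minus strand), held 2 E2F motifs and 3 CCAAT boxes. Rpa3, the smallest RPA subunit, at chr6:8259092-8259391 (minus strand), held 2 CCAAT boxes. Aurka, the Aurora A kinase, at chr2:172370521-172370820 (minus strand), held 1 CHR motif and 2 CCAAT boxes. These 3 had the best median rank of their class among members with a searched motif. Mcm10, at chr2:5012742-5013041 (minus strand), held 3 CCAAT boxes and is shown because its peak was missing from every Res499 list of equal length.
Mcm3: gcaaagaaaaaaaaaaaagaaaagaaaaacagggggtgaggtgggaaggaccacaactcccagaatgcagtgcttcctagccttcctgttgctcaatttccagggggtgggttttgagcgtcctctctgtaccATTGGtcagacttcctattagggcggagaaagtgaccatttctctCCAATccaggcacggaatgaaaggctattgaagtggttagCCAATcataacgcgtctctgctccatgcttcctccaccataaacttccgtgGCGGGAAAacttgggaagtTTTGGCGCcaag
Rpa3: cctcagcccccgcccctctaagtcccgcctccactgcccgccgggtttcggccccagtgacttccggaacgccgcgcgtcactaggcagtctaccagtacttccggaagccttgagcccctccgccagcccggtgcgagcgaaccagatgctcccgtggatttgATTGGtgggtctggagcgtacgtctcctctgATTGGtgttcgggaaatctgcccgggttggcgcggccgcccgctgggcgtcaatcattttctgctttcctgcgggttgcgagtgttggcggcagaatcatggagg
Aurka: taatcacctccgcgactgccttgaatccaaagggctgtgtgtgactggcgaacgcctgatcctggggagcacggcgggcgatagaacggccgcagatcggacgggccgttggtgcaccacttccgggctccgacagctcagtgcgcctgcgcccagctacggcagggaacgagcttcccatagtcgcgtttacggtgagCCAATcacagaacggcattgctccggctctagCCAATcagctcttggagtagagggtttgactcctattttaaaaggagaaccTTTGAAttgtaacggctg
Mcm10: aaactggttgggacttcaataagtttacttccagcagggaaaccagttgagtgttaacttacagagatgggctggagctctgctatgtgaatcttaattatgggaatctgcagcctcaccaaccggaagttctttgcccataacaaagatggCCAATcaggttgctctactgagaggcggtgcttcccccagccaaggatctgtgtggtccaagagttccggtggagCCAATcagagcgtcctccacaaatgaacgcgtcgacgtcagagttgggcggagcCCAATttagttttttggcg

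A pair of further promoters was chosen after values were seen. Gins3, a subunit of the GINS complex, ranked better in Res499 than in both other groups, and Cdk1 holds both kinds of cell cycle motif. Gins3, at chr8:95633309-95633608 (plus strand), held 1 E2F motif, 1 CHR motif and 2 CCAAT boxes. Cdk1, at chr10:69352863-69353162 (minus strand), held 1 E2F motif, 2 CHR motifs and 3 CCAAT boxes.
Gins3: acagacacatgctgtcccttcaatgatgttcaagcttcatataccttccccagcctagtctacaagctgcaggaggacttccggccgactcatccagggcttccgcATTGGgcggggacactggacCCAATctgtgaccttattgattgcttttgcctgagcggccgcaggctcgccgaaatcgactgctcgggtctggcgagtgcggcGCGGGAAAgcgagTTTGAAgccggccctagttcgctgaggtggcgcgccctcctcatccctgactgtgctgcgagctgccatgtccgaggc
Cdk1: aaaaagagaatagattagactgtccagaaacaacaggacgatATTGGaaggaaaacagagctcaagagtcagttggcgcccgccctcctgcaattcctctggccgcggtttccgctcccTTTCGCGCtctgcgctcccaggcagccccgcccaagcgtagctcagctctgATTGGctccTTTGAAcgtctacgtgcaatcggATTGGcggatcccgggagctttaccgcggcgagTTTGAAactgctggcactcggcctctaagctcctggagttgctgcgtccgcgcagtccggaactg

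Most replication and mitosis genes had a gene-end peak in most libraries. In the equal-length lists, 20 of the 46 members (43.5%) had a peak in all 9 libraries, against 4405 of 21883 coding genes (20.1%). By class this was 8 of 14 licensing genes (57.1%), 9 of 24 fork genes (37.5%) and 3 of 8 mitosis genes (37.5%). The number of members with a peak was 37, 36 and 36 in Res499, 34, 32 and 35 in B16_IFNg, and 33, 34 and 31 in B16_untreated. In the full lists it was 40, 36 and 38 in Res499, 39, 36 and 37 in B16_IFNg, and 39, 40 and 41 in B16_untreated, so the order between Res499 and B16_untreated in the equal-length lists was not seen in lists of unequal length. A peak in at least 3 of the 9 equal-length lists was needed for a test, and 12 licensing, 21 fork and 8 mitosis genes had one, 41 members in all (89.1%), against 8418 coding genes (38.5%). Among these tested genes the median of the genes' median ranks was 4009 for licensing, 4960 for the fork and 5979 for mitosis, against 4729 for all tested genes. Members thus had peaks in more libraries than coding genes at large by count, at ranks near the middle of the lists.

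**Figure D1:**
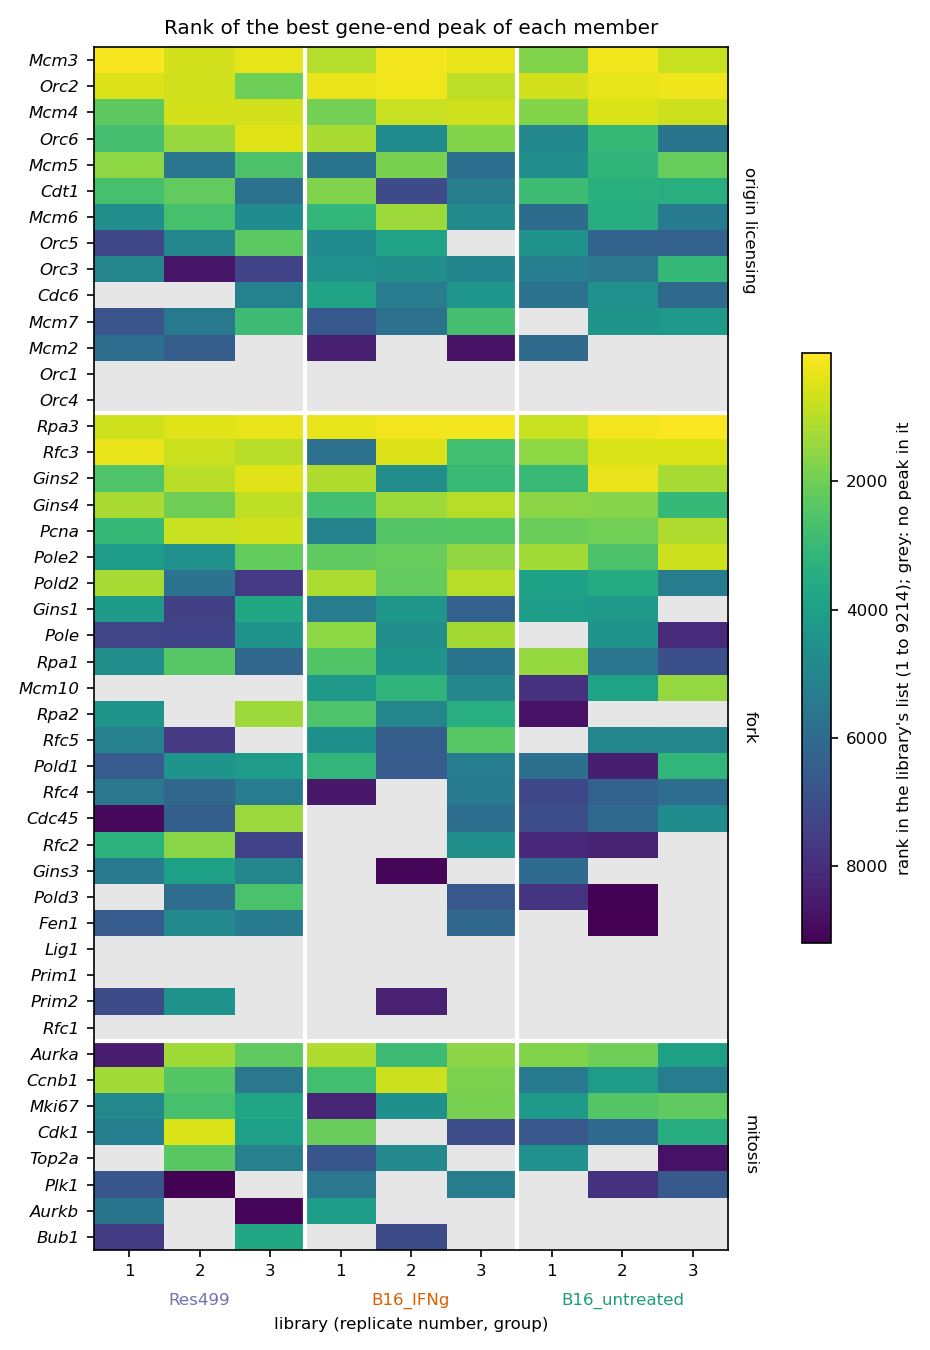
Rank of the best gene-end peak of each of the 46 members (rows, by class and median rank) in each of the 9 libraries (columns, by group and replicate), on a colour scale of 1 to 9214, with grey where the equal-length list held no peak. Mcm3, Orc2 and Rpa3 are bright in every column, and the Mcm10 row is grey in all 3 Res499 columns and in no other column.

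Of the 5 members without a test, 4 had no peak at an annotated gene end in any list: the origin recognition genes Orc1 and Orc4, the clamp loader gene Rfc1 and the DNA ligase gene Lig1. In all 4 a RefSeq start lay more than 1000 bp inside the annotated gene, by 3749 bp in Orc1, 2821 bp in Orc4, 2978 bp in Rfc1 and 1651 bp in Lig1. At those starts Orc4 and Lig1 had a peak in all 9 equal-length lists, Orc1 in 8 and Rfc1 in 5. The nearest Orc4 start, 2668 bp inside, had the same ranks. Lig1 also has a RefSeq start at its annotated gene end, with no peak there in any list. The Lig1 start 1651 bp inside ranked 200, 2854 and 405 in Res499, 1191, 1534 and 1329 in B16_IFNg, and 3991, 627 and 1375 in B16_untreated. The Orc1 start ranked 6308, 3738 and 2019 in Res499, 10130 (in the full list), 2124 and 3747 in B16_IFNg, and 6029, 5610 and 7333 in B16_untreated. Prim1, the catalytic subunit of primase, had 1 gene-end peak in all the files, at rank 11761 of B16_IFNg replicate 2, with 7 fragments at its summit. With starts and gene ends together, 45 of the 46 members had a peak in at least 1 equal-length list.

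Among licensing genes, the peaks of Mcm3 and Orc2 stood high in every list. Mcm3 ranked 108, 620 and 342 in Res499, 1020, 178 and 290 in B16_IFNg, and 1751, 183 and 760 in B16_untreated. Orc2 ranked 480, 654 and 2020 in Res499, 304, 210 and 901 in B16_IFNg, and 645, 359 and 224 in B16_untreated. The groups overlapped for both genes. Mcm4, which shares its peak with Prkdc, ranked between 525 and 2293. The other helicase subunits lay lower: Mcm5 between 1562 and 5860, and Mcm6 between 1366 and 5943. Mcm7 was next to last of the tested licensing genes by median rank. Mcm7 ranked 6783, 5498 and 2906 in Res499, 6668, 5788 and 2703 in B16_IFNg, and no place (10543 in the full list), 4437 and 4250 in B16_untreated, and the groups overlapped. Mcm2 was the lowest of the tested licensing genes, at 5890, 6508 and no place in Res499, 8388, no place and 8754 in B16_IFNg, and 6034 and no place in the 2 other lists of B16_untreated.

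Orc6, the smallest subunit of the origin recognition complex, ranked better in all 3 Res499 libraries than in any untreated one. It ranked 2730, 1420 and 438 in Res499, 1154, 4752 and 1711 in B16_IFNg, and 4904, 3027 and 5683 in B16_untreated. The B16_IFNg ranks overlapped with both. The Orc6 summits held 22, 20 and 38 fragments in Res499 and 29, 34 and 29 in B16_untreated, which overlap. Its site (chr8:85299120-85300101) also covers an end of Vps35, a gene of endosome sorting, so the peak cannot be given to Orc6 alone. Cdc6, which loads the helicase, had no peak in Res499 replicates 1 and 2, in the full lists either, and ranked 5179 in replicate 3. It ranked 3822, 5342 and 4373 in B16_IFNg and 5753, 4559 and 6029 in B16_untreated. That Res499 rank fell inside the range of the other libraries, so the groups overlapped. Cdt1 ranked between 1731 and 7083, Orc3 between 3070 and 8658, and Orc5 between 2322 and 7238 with 1 list lacking it.

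Rpa3, a fork gene, had the best median rank of all members, with 668, 449 and 313 in Res499, 298, 147 and 145 in B16_IFNg, and 763, 153 and 47 in B16_untreated. The Res499 ranks were all worse than those of B16_IFNg, though only just, at 313 for the best Res499 rank against 298 for the worst of B16_IFNg. The site is shared with an end of Umad1. Rfc3, a clamp loader subunit, ranked 312, 727 and 983 in Res499, 5778, 492 and 2785 in B16_IFNg, and 1571, 508 and 505 in B16_untreated. The rank of B16_IFNg replicate 2 lay among those of the other groups, and replicates 1 and 3 were worse than all of them. Gins2 (316 to 4673), Gins4 (865 to 3052) and Pole2, the second subunit of polymerase epsilon (695 to 4548), had a peak in every list. So did Pold1, the catalytic subunit of polymerase delta (3146 to 8430), and Rpa1, the largest RPA subunit (1467 to 6958). Gins1 (3724 to 7459) and the clamp loader gene Rfc4 (5346 to 8581) were each absent from 1 list, Rfc5 (2395 to 7697) from 2 and Pold3, an accessory subunit of polymerase delta (2642 to 9178), from 4.

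Mcm10, which helps switch on the loaded helicase, was the one member with a peak in every library of 2 groups and in none of the third. None of the 3 Res499 lists of equal length held a Mcm10 peak, while it ranked 4271, 3213 and 4960 in B16_IFNg and 7915, 3896 and 1463 in B16_untreated. In the full lists Res499 replicate 1 had a peak at rank 9362, just below the last rank used, with 11 fragments at its summit, and replicates 2 and 3 had none. The peaks in B16_IFNg held 17, 14 and 17 fragments and those in B16_untreated 20, 29 and 42. The site (chr2:5012165-5012997) lies over the annotated start, with summits from -55 to -7 bp in the equal-length lists and at 14 bp in the full list of Res499 replicate 1, and shares no other coding gene end. Res499 was thus below the ranks of both other groups, which overlapped with each other.

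Gins3 showed the opposite order. It ranked 5464, 3951 and 5036 in Res499, against 9081 in B16_IFNg replicate 2 and 5996 in B16_untreated replicate 1, with no place in the other 4 equal-length lists. In the full lists it ranked 10675 in B16_IFNg replicate 1, and 10752 and 14795 in B16_untreated replicates 2 and 3, so lower-ranked peaks were present in 5 of those 6 libraries. The Res499 peaks held 16, 13 and 20 fragments, against 11 and 9 in B16_IFNg and 25, 16 and 15 in B16_untreated. The fragments at the summit therefore did not order the groups as the ranks did. The site (chr8:95633316-95633944) covers the Gins3 start and no other coding gene end.

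Fen1, the flap nuclease of the lagging strand, ranked 6548, 4800 and 5366 in Res499. It ranked 6152 in B16_IFNg replicate 3 and 9200 in B16_untreated replicate 2, with no place in the other 4 lists. The full lists added ranks of 13261 in B16_IFNg replicate 1 and of 10453 and 14709 in B16_untreated replicates 1 and 3. The ranks of Res499 were better than all of B16_untreated, and the site is shared with an end of Tmem258. The summits held 14, 12 and 18 fragments in Res499 and 20, 19 and 15 in B16_untreated, which overlap. Rfc2, another clamp loader subunit, ranked 3329, 1635 and 7360 in Res499 and 4643 in B16_IFNg replicate 3, with no place in the other two lists of B16_IFNg. In B16_untreated it ranked 8135 and 8327, and 9243 in the full list of replicate 3. Again every Res499 rank was better than every untreated one, while the summits held 19, 17 and 19 fragments in Res499 and 22, 18 and 20 in B16_untreated.

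Rpa2, the middle subunit of RPA, ranked better in each B16_IFNg library than in any untreated one. It ranked 4431 and 1335 in Res499, where replicate 2 had no peak, 2527, 5017 and 3423 in B16_IFNg, and 8765 in B16_untreated replicate 1. In B16_untreated replicates 2 and 3 it had no place (12695 and 9697 in the full lists), and Res499 overlapped with both groups. Its summits held 21, 12 and 18 fragments in B16_IFNg and 20, 14 and 21 in B16_untreated. Pold2, a subunit of polymerase delta, ranked 1222, 5689 and 7690 in Res499, 1142, 2231 and 987 in B16_IFNg, and 3924, 3534 and 5308 in B16_untreated. Here too the B16_IFNg and untreated ranks did not overlap, and the Res499 ranks spanned both. The Pold2 summits held 28, 19 and 31 fragments in B16_IFNg, fewer than the 36, 37 and 33 of B16_untreated.

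Pcna, the sliding clamp, was the one member whose B16_IFNg ranks were all worse than its untreated ones. It ranked 3039, 785 and 665 in Res499, 5099, 2454 and 2420 in B16_IFNg, and 2066, 1972 and 1091 in B16_untreated. The site is shared with an end of Cds2. The Pcna summits held 20, 18 and 26 fragments in B16_IFNg and 42, 42 and 58 in B16_untreated. Pole, the catalytic subunit of polymerase epsilon, ranked 7297, 7348 and 4467 in Res499, 1556, 4651 and 1257 in B16_IFNg, and no place (9444 in the full list), 4533 and 8105 in B16_untreated. B16_IFNg held the best ranks of Pole, but its replicate 2 overlapped with B16_untreated. Cdc45 ranked 8994, 6435 and 1391 in Res499, had a place in 1 of 3 B16_IFNg lists, at 5884, and ranked 7025, 6078 and 4747 in B16_untreated. Prim2, the large subunit of primase, had a place in 2 Res499 lists (7068 and 4521), 1 B16_IFNg list (8378) and none of B16_untreated. In the full lists Prim2 had a peak in all 9 libraries.

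**Figure D2:**
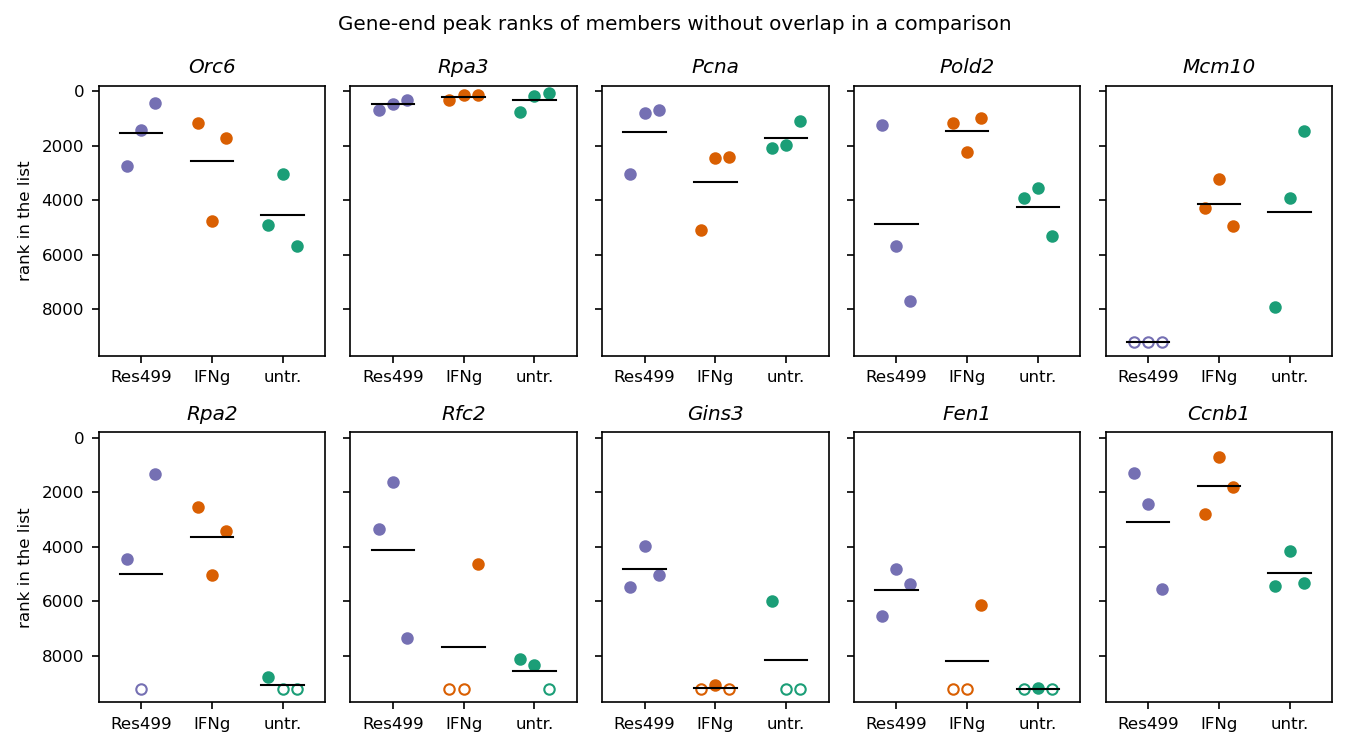
Ranks (y axis, 0 at the top, list length 9214) of the 10 members whose ranks did not overlap between at least 1 pair of groups, in Res499, B16_IFNg (IFNg) and B16_untreated (untr.). Points are the 3 libraries of a group, open points mark a list with no peak, drawn at 9215, and bars are group means; Mcm10 has 3 open points in Res499.

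Among mitosis genes, Aurka and Ccnb1 had the best median ranks. Aurka ranked 8491, 1314 and 2266 in Res499, 1090, 2900 and 1597 in B16_IFNg, and 1737, 2052 and 3973 in B16_untreated, and shares its peak with Cstf1. Res499 replicate 1 was worse than every other library, and replicates 2 and 3 lay among the others. Ccnb1, which encodes cyclin B1, ranked 1282, 2441 and 5556 in Res499, 2782, 709 and 1819 in B16_IFNg, and 5426, 4156 and 5328 in B16_untreated. Every B16_IFNg rank was better than every untreated one, and its site (chr13:100786288-100786976) covers no other coding gene end. The B16_IFNg summits held 21, 22 and 25 fragments, fewer than the 27, 29 and 29 of B16_untreated.

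Mki67 also had a peak in every list, and the remaining mitosis genes in fewer. Mki67, which encodes Ki-67, ranked 4877, 2676 and 3798 in Res499, 8243, 4598 and 1855 in B16_IFNg, and 4254, 2455 and 2235 in B16_untreated, with overlap between all groups. Cdk1 ranked 5224, 530 and 4014 in Res499, 2113 and 7035 with 1 absence in B16_IFNg, and 6729, 6080 and 3461 in B16_untreated. Bub1, of the spindle checkpoint, had a place in Res499 replicates 1 and 3 (7569 and 3730) and B16_IFNg replicate 2 (7094), and in no untreated list of equal length. Its full untreated lists ranked it 12759, 12331 and 15108. Aurkb, the Aurora B kinase, had a place in 2 Res499 lists (5622 and 9055), 1 B16_IFNg list (4062) and no untreated one, with a rank of 13312 in the full list of B16_untreated replicate 3. Plk1 (5345 to 9163) and Top2a (2358 to 8754) each had a place in 2 libraries of every group. Near the last rank used, Plk1 (9163 in Res499 replicate 2) and Fen1 (9200 in B16_untreated replicate 2) fell just inside, and Rfc2 (9243) and Mcm10 (9362) just outside.

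The comparison of B16_IFNg with B16_untreated asks whether long exposure to interferon gamma changed access to these genes. No member passed the threshold. Ranks, in percent of the list, were compared with limma over all 8418 tested genes, and 0 of 41 members had a Benjamini-Hochberg adjusted p under 0.05, as had 0 of all genes (0% called, lowest adjusted p of 1). At an unadjusted p under 0.05 there were 4 of 41 members (Rfc3, Pole, Rpa2 and Ccnb1), beside 3.84% of all tested genes. Ranks without overlap and better in B16_IFNg were found for 3 of 41 (Pold2, Rpa2 and Ccnb1; 7.32%), beside 5.24% of all genes. They were worse in B16_IFNg for 1 of 41 (Pcna; 2.44%), beside 3.97%. The largest of these differences was that of Rpa2, at -58.7 ± 20.9 percentage points of the list (SE, limma, adjusted p of 1), from means of 39.7 ± 13.7 in B16_IFNg and 98.4 ± 2.82 in B16_untreated (SD over 3 libraries), where a negative value is a better rank in B16_IFNg. Ccnb1 differed by -34.7 ± 15.5 points, Pold2 by -30.4 ± 17.7 and Pcna by 17.5 ± 10.5 (SE, limma, adjusted p of 1 each). The median difference over the members was -4.36 points, beside -0.62 over all tested genes, and by class it was 0.96 for licensing, -3.78 for fork and -7.77 for mitosis genes. The unadjusted count was 1 without B16_untreated replicate 3 (Rpa2; 2.44%, beside 2.78%) and 2 without B16_IFNg replicate 3 (4.88%, beside 4.95%).

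Res499 against B16_untreated asks what sets the resistant line apart. Again 0 of 41 members and 0 of all tested genes passed (0% called, limma, lowest adjusted p of 0.737, the value of Fen1 among the members). Unadjusted, 7 of 41 members had a p under 0.05 (Orc6, Mcm10, Gins3, Rfc2, Pole2, Rpa2 and Fen1; 17.1%), beside 6.69% of all tested genes. Ranks did not overlap and were better in Res499 for 4 of 41 (Orc6, Gins3, Rfc2 and Fen1; 9.76%), beside 6.18%, and worse for 1 of 41 (Mcm10; 2.44%), beside 5.52%. Mcm10 differed by 52 ± 19.7 points (SE, limma, adjusted p of 0.738), from means of 100 ± 0 in Res499 and 48 ± 35.4 in B16_untreated (SD over 3 libraries). Rfc2 differed by -48.3 ± 18.7 points, Gins3 by -36.1 ± 14.3 and Orc6 by -32.7 ± 14 (SE, limma, adjusted p of 0.738 each), and Fen1 by -39.5 ± 13.4 (adjusted p of 0.737). The median difference was -7.63 points over the members, beside -0.52 over all tested genes, and by class -3.40 for licensing, -7.63 for fork and -16.97 for mitosis genes. The count of members without overlap depended on the lists. It was 5 in these (12.2%, beside 11.7% of all tested genes), 2 with peaks ranked by fold enrichment (5.13%, beside 11.3%), 1 in lists of 4607 peaks (3.7%, beside 9.83%) and 10 without Res499 replicate 2 and with longer lists (24.4%, beside 23.2%). The unadjusted count was 1 without B16_untreated replicate 3 (Fen1; 2.44%, beside 4.07%), 4 without B16_untreated replicate 1 (9.76%, beside 7.25%) and 1 in lists of 4607 peaks (Orc6; 3.7%, beside 5.47%). It was 9 with a term for the split by shortest peak (22%, beside 6.02%) and 8 with the replicate number as a block (19.5%, beside 6.9%).

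Between Res499 and B16_IFNg, 0 of 41 members and 0 of all genes passed (0% called, limma, lowest adjusted p of 0.549 over all genes and 0.77 over the members). Unadjusted, 5 of 41 had a p under 0.05, all of them fork genes (Mcm10, Gins3, Rfc3, Pold2 and Fen1; 12.2%), beside 6.08% of all tested genes. Ranks were without overlap and better in Res499 for Gins3 alone (2.44%, beside 4.97%), and worse for Mcm10 and Rpa3 (4.88%, beside 5.08%). Gins3 differed by -47.2 ± 14.3 points (SE, limma, adjusted p of 0.77), from means of 52.3 ± 8.46 in Res499 and 99.5 ± 0.84 in B16_IFNg (SD over 3 libraries). Mcm10 differed by 55 ± 19.7 points (SE, limma, adjusted p of 0.786), from means of 100 ± 0 in Res499 and 45 ± 9.55 in B16_IFNg, and Rpa3 by 3.04 ± 3.22 (adjusted p of 0.877). The median difference was -2.45 points over the members, beside 0.05 over all tested genes, and by class -0.71 for licensing, -3.94 for fork and -3.52 for mitosis genes. The 3 comparisons share libraries, so a gene that appears in more than 1 of them, such as Mcm10 or Gins3, is not seen independently. A two-sided exact test of 3 libraries against 3 cannot go below p = 0.1. The unadjusted count was 8 without Res499 replicate 1 (21.1%, beside 6.36% of all genes) or replicate 3 (20.5%, beside 6.32%). It was 3 without B16_untreated replicate 1 (7.32%, beside 6.32%) or replicate 2 (7.32%, beside 5.2%). The count without overlap was 1 in lists of 4607 peaks (3.7%, beside 9.26%) and 7 with all deposited peaks (17.1%, beside 7.85%). In all 3 comparisons, a count of 0 does not show that ranks did not differ.

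Libraries of one group spread widely in rank. The median SD within groups was 19.2 points of the list for the 41 tested members, close to the 18.5 points of all 8418 tested genes. It was smallest for the genes at the top of the lists, at 2.72 points for Rpa3, 5.94 for Orc2 and 5.96 for Mcm3. It was widest for Top2a (30.2), Cdk1 (29.5) and Cdc45 (28).

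Genes of the same pathways outside the list were counted in the same way. Of 33 further S phase genes, 17 had a peak in all 9 equal-length lists and 27 were tested, with a median rank of 4478. Of 27 further genes of G2 and mitosis, 13 had a peak in all 9 lists and all 27 were tested, with a median rank of 4160. None passed the adjusted threshold in any comparison. In B16_IFNg against B16_untreated the median difference was -0.95 points for S phase genes and -0.03 for genes of G2 and mitosis. It was -1.53 and 0.46 in Res499 against B16_untreated, and 2.05 and 0.41 in Res499 against B16_IFNg. The members had -4.36, -7.63 and -2.45 in these comparisons. In B16_IFNg against B16_untreated, ranks were without overlap and better for 2 and worse for 2 of the 27 tested S phase genes, and better for 0 and worse for 2 of the 27 genes of G2 and mitosis, beside 5.24% better and 3.97% worse over all tested genes. In Res499 against B16_untreated they were better for 1 and worse for 1 S phase gene, and better for 1 and worse for 2 of G2 and mitosis, beside 6.18% and 5.52%. In Res499 against B16_IFNg they were better for 3 and worse for 1 S phase gene, and better for 0 and worse for 2 of G2 and mitosis, beside 4.97% and 5.08%. In each comparison 1 S phase gene (3.7%) had an unadjusted limma p under 0.05. Over all tested genes the share was 3.84%, 6.69% and 6.08% in the order above. Of the genes of G2 and mitosis, 1 (3.7%) had such a p in Res499 against B16_untreated and 0 in the others.

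The accessible sites of the members sat close to their starts. For the 33 members with a RefSeq promoter and a gene-end peak, 253 peaks were measured over the 9 lists, and their summits lay at a median distance of 78 bp from the nearest annotated start, against 99 bp for all coding genes. Of the summits, 92.1% were within 250 bp, against 79.2% for all coding genes. The median peak was 491 bp wide, against 579 bp. Most summits lay upstream, with median positions of -28 bp for licensing, -55 bp for fork and -92 bp for mitosis genes. The summits of Cdc6 lay farthest out, from -425 to -318 bp of its RefSeq promoter start. That start lay 442 bp inside the annotated gene, so the Cdc6 summits were nearer to the annotated gene end. Another coding gene end lay under the peak of 13 of the 42 members with one, among them Mcm7 (Ap4m1), Cdc45 (Ufd1), Pole (Pxmp2) and Orc3 (Rars2). Per library 30.3% to 38.7% of members with a peak shared it in this way, against 30.2% to 32.7% of all coding genes with a peak.

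**Figure D3:**
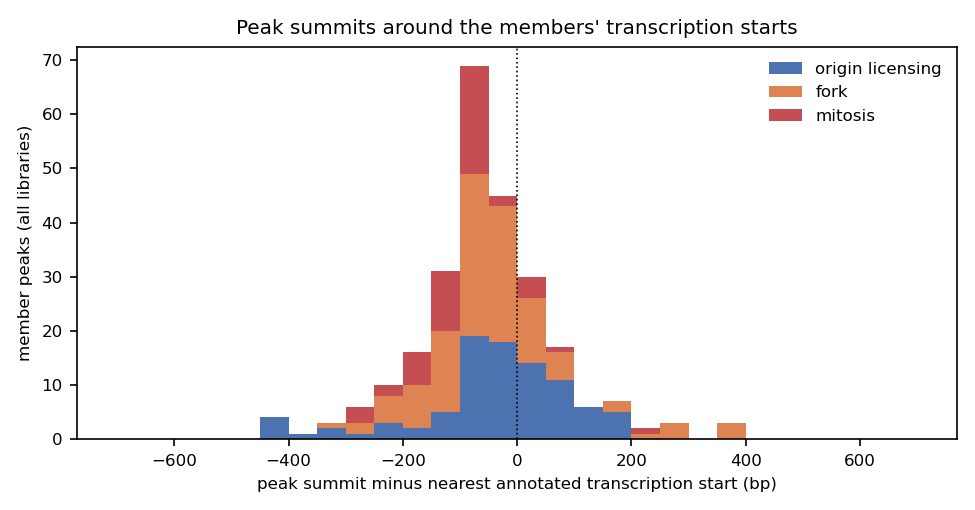
Distance of each member's peak summit from its nearest annotated start (x axis, in bp, negative upstream) against the number of peaks over all 9 libraries (y axis, stacked by class, bins of 50 bp). Summits run from -425 to 396 bp and pile up just upstream of the start.

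The number of fragments behind these peaks was small in every library. It was recovered from the deposited fold enrichment and p-value of each peak. The median summit of a member's peak held 19, 16 and 26 fragments in Res499, 21.5, 15 and 21 in B16_IFNg, and 34, 34 and 38 in B16_untreated, and single peaks held between 8 and 107. All 3 untreated libraries had higher medians than any other library. Fragment counts also follow the depth of a library and were not tested gene by gene.

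**Figure D4:**
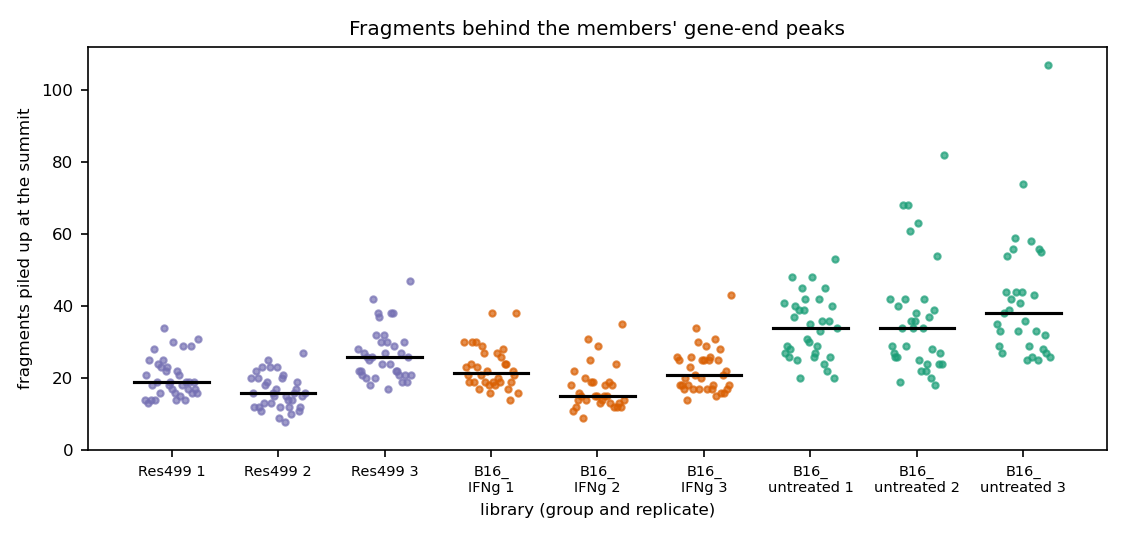
Fragments piled up at the summit (y axis) of each member's gene-end peak in the equal-length lists, by library (x axis). Points are members and bars are medians, which lie between 15 and 26 in Res499 and B16_IFNg and between 34 and 38 in B16_untreated.

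The promoter letters differed between the classes. Promoter windows were matched for 38 of the 46 members, by symbol. An E2F motif (TTTGGCGC, TTTCCCGC, TTTCGCGC or TTTGCCGC, on either strand) stood in 8 of 13 licensing genes (61.5%), 6 of 18 fork genes (33.3%) and 1 of 7 mitosis genes (14.3%), against 3.29% of 17491 coding genes with a window. A CHR motif (TTTGAA or TTCGAA, on either strand) stood in 2 of 13 licensing genes (15.4%), 5 of 18 fork genes (27.8%) and 6 of 7 mitosis genes (85.7%), against 20.2%. CCAAT boxes were in 69.2%, 61.1% and 100% of licensing, fork and mitosis genes, against 42.3%, and a GC box (GGGCGG) in 76.9%, 72.2% and 85.7%, against 49.2%. E2F letters shared bases with a CCAAT box in 1 of the 46 windows of these members and CHR letters in 0. The further S phase genes held E2F motifs in 31% and CHR motifs in 24.1%, and the further genes of G2 and mitosis in 0% and 71.4%. Windows of the members had a median of 24 CpG sites, against 15 for all coding genes. A match of letters is a description of the window and does not show that a factor was bound.

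Median ranks of members with and without a motif are given as a description. The median rank of tested members with an E2F motif was 5075 and without one 4973, against 4360 and 4610 over all tested coding genes with a window. With a CHR motif it was 6435 and without one 4664, against 4767 and 4555. With a CCAAT box it was 4663 and without one 5239, against 3937 and 5087. Of the members without overlap in a comparison, Gins3 held E2F, CHR and CCAAT letters, Orc6, Mcm10, Rpa2, Rpa3, Pcna and Ccnb1 held CCAAT boxes and neither E2F nor CHR, Fen1 held CHR letters, Pold2 held CCAAT boxes in a window and CHR letters in another, and Rfc2 had no window to search. The Mcm10 window ends in the first letters of the E2F motif TTTGGCGC, and the base after its edge was not searched.

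**Figure D5:**
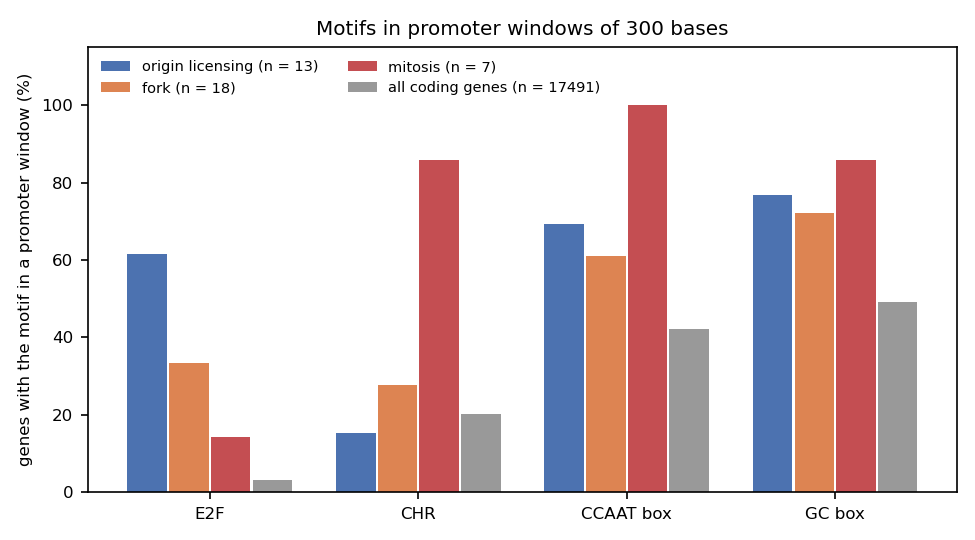
Share of genes (y axis, in percent) with each motif (x axis) in a 300-base promoter window, for licensing (13 genes), fork (18), mitosis (7) and all coding genes (17491) with a window. The E2F bar is highest for licensing at 61.5% and the CHR bar for mitosis at 85.7%, while all coding genes stand at 3.29% and 20.2%.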

How the data were processed

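ATAC-seq peak lists of 9 libraries were used. The submitters' processing notes name CASAVA, cutadapt 1.9, Bowtie2 2.2.4, MACS2 and build GRCm38 (mm10). How MACS2 was set, in which version, and whether read positions were corrected for the transposase are not given in the sources used here. Peaks were called per library. Each deposited peak carries an integer score, the fold enrichment at its summit over the local background (a ratio), a −log10 p, a −log10 q and the summit's offset in bases. These are the authors' values and served only to rank and describe peaks within a list. The lists carry no read counts, so the depth is unknown. Fragments at a summit were recovered from the deposited fold and −log10 p, which were matched within 0.01 for all of 300 sampled peaks per library.

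Ranks were by −log10 p over the autosomes and X and Y, and 9214 peaks were kept per list, the length of the shortest. Genes and promoters came from RefSeq tables of GRCm38.p6. A gene with no peak in a list took rank 9215. Genes with a peak in at least 3 of the 9 lists were tested on their rank in percent of the list with limma 3.58.1 (R 4.3.3, moderated two-sided test with a mean trend, all 9 libraries in a single fit), with Benjamini-Hochberg adjustment over all tested genes. A member that passed this filter through a single group had to differ, so counts over tested members are a description. Libraries were also split by whether the shortest peak of a list was at least 150 bp long, a split read from the lists and given by no label. The scripts (Python 3.11.15, pandas 2.3.3, SciPy 1.17.1) were tested on simulated data.

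The members, gene lists and tests were chosen with earlier results of these data known. Named with values in every library were members whose ranks did not overlap in a comparison, members whose number of libraries with a peak differed by 2 or more between groups, the 2 best and 2 worst median ranks of each class, and Mcm10. The values of Pole, Mki67 and Cdk1, the ranges of other members and the promoters of Gins3 and Cdk1 were added after values were seen. The alternatives were ranking by fold enrichment, shorter lists, all deposited peaks, narrower and wider windows, starts in place of gene ends, other filters, normal scores, a replicate block, a term for the shortest-peak split, each library left out, and the shortest list left out.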

Additional observations from a re-analysis of the deposited data

How the results depend on the processing

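Counts of 0 members past the limma threshold were found under every alternative run, in each of the 3 comparisons, but with 2 or 3 libraries a group and this spread few differences could pass, so they are no sign of stability. With the replicate number as a replicate block the count was 0 in each comparison, and likewise with the shortest-peak split as a term. Libraries that share a number deviated together little, if at all. Over all tested genes, the correlations of their deviations from the group means ran from -0.0134 to 0.0672. Pairs of libraries with different numbers in different groups ran from -0.0802 to 0.0717. The numbers were taken as names, and a weak tie between libraries of the same number was not tested. The 12 rank differences of members without overlap were selected for their order, which leaving out a library cannot turn, so their directions are not given as support. Adjusted p over the alternatives ran from 0.27 to 0.996 for Mcm10 in Res499 against B16_untreated and from 0.593 to 0.901 for Gins3 in Res499 against B16_IFNg. Counts of members without overlap are given with the share over all tested genes under the same setting in parentheses. For Res499 against B16_untreated the count was 5 of 41 tested members (11.7%). It became 2 of 39 with ranking by fold enrichment (11.3%) and 1 of 27 with lists of 4607 peaks (9.83%). It was 1 of 20 among genes with a peak in all 9 lists (11%) and 10 of 41 with the shortest list left out and longer lists (23.2%). For Res499 against B16_IFNg the count of 3 of 41 (10%) became 1 of 27 with lists of 4607 peaks (9.26%) and 7 of 41 with all deposited peaks (7.85%). It was 1 of 20 among genes with a peak in all 9 lists (10.5%). With lists of 4607 peaks, 6 members in place of 20 had a peak in all 9 libraries, since such lists hold fewer peaks. In the full lists 26 of 46 members had one in all 9 (56.5%), beside 26.4% of all coding genes. That share was not counted with lists of 4607 peaks or with a library left out, so those counts have nothing beside them. Leaving out a library, which asks less of a count without overlap, gave 4 to 12 members in place of 4 for B16_IFNg against B16_untreated, 5 to 10 in place of 5 for Res499 against B16_untreated, 3 to 11 in place of 3 for Res499 against B16_IFNg, and 20 to 22 members with a peak in all libraries. For B16_IFNg against B16_untreated the count was 8 without B16_IFNg replicate 1 (18.7%) or 3 (21.5%), 12 without B16_IFNg replicate 2 (18.7%) and 9 without B16_untreated replicate 2 (17.1%). It was 4 without B16_untreated replicate 1 (19.9%) and 6 without B16_untreated replicate 3 (15.8%). For Res499 against B16_untreated it was 10 without Res499 replicate 1 (21.6%), 2 (22.9%) or 3 (22.7%). It was 9 without B16_untreated replicate 1 (24.8%) or 2 (19.3%) and 7 without B16_untreated replicate 3 (17.2%). For Res499 against B16_IFNg it was 11, 4 and 9 without Res499 replicates 1, 2 and 3 (19.6%, 19.9% and 19.9%). It was 6, 10 and 9 without B16_IFNg replicates 1, 2 and 3 (18.6%, 19.8% and 19.7%). Over all alternatives, with 20 to 42 members tested, unadjusted counts ran from 1 to 4 members in B16_IFNg against B16_untreated. That was 2.44% to 14.8% of tested members, beside 2.78% to 7.13% of all tested genes. In Res499 against B16_untreated the counts ran from 1 to 9 (2.44% to 22%, beside 4.07% to 14.4%). In Res499 against B16_IFNg they ran from 2 to 8 (7.32% to 21.1%, beside 5.14% to 6.44%). Where no cause is given, the cause was not tested. Peaks held few fragments, and ranks near the end of a list are its least significant peaks, so absence from a list is not absence of open chromatin.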
